A study of Mus musculus with 9 samples.

Results

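Respiratory complex I was followed through the 46 genes of the count table whose symbols begin with Nduf, out of 17769 genes in all. Of these, 38 carry subunit names and 8 are assembly factors named Ndufaf, which are kept apart throughout. The cells were sorted from mouse bone marrow (C57BL/6N background) as MEP, short for megakaryocyte-erythroid progenitors, and each group has 3 Smart-Seq2 libraries. VF carried SclCre with V617F and was taken 12 weeks after tamoxifen, E12 carried SclCre with Exon12 and was taken after 6 weeks, and WT was taken after 12 weeks, with 5 daily tamoxifen injections per the labels. The sources used here say nothing of a Cre in WT, of the animals' age or sex, or of which blood cells escaped recombination. Scl is a gene of stem and progenitor cells, and the SclCre transgene acts in these cells and their progeny. The contrasts of E12 with VF and with WT therefore also differ in the weeks after tamoxifen, and effects of genotype and of time cannot be told apart there. Whether each library came from its own mouse is not given, so all p-values rest on the variation among libraries of a group, which may be technical only.

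Complex I takes electrons from NADH, passes them along a flavin and a chain of iron-sulfur clusters to ubiquinone, and pumps protons across the inner mitochondrial membrane. Its peripheral arm, which stands in the matrix, holds the nuclear core subunits that bind NADH, the clusters and the quinone, while the membrane arm is built around core subunits encoded in mitochondrial DNA. Accessory subunits surround both arms, and assembly factors help to join the pieces and then leave. Developing red cells lose their mitochondria late, after a stage with high demand for heme and energy. The mitochondrially encoded ND genes had 0 rows in the count table and are not analysed here, so the results concern nuclear genes.

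The 9 libraries held 19256431 to 21331168 counts in VF, 20328414 to 23499914 in E12 and 33838681 to 39736096 in WT. Genes under 1 kb took 8.24% to 8.97% of counts in VF and 6.92% to 8.79% in E12, against 27.9%, 14.1% and 11.2% in WT 50, WT 51 and WT 52. WT 50 stands apart, and its scaling factor by TMM (the trimmed mean of M-values) was 0.456. Because 26 of the 38 subunit genes are shorter than 1 kb, against 2251 of all 17769 genes, each contrast with WT is given beside genes of similar length. The sort was also checked by markers. The 20 erythroid markers summed to 1491 to 2263 CPM in VF, 9991 to 40071 CPM in E12 and 26059 to 44422 CPM in WT, and all 20 had counts in every library. The 20 megakaryocyte markers summed to 3534 to 4288 CPM in VF, 859 to 1026 CPM in E12 and 423 to 677 CPM in WT, where the integrin gene Itgb3 was at 0 in each library. The 14 stem and progenitor markers summed to 2396 to 2430 CPM in VF, 730 to 1238 CPM in E12 and 141 to 252 CPM in WT. The 15 neutrophil and monocyte markers summed to 7142 to 13179, 1857 to 2335 and 326 to 4436 CPM, and the 15 lymphoid markers to 658 to 857, 254 to 780 and 482 to 4935 CPM, in VF, E12 and WT. E12 5 held most hemoglobin, 3.37% of its counts. The groups thus also differ in marker sums. In bulk RNA fewer cells of a type and less RNA per cell cannot be told apart, so these sums do not settle the makeup of the sorted cells. The part of that makeup in the complex I results was not tested.

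CPM denote counts scaled by the TMM library size. Of the members, 37 subunit genes and all 8 assembly factors passed a filter on low counts, together with 13608 genes in all. The gene left out was Ndufa4l2, a paralogue of Ndufa4 induced by hypoxia in other cells, with 2, 2 and 1 counts in VF, 1, 3 and 5 in E12 and 1, 0 and 0 in WT. Calls below mean an adjusted p under 0.05 by edgeR's quasi-likelihood test over all genes tested, with all 9 libraries in 1 fit.

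Transcripts of the genes with subunit names, Ndufa4 included, together took 0.677%, 0.675% and 0.63% of counts in VF 1, VF 2 and VF 3 and 0.729%, 0.619% and 0.654% in E12 1, E12 2 and E12 5, against 2.87%, 1.51% and 1.24% in WT 50, WT 51 and WT 52. The 6 mutant libraries lay close together, and each WT library lay above all of them. The assembly factors took 0.0405%, 0.0393% and 0.0355% of counts in VF and 0.0493%, 0.0441% and 0.0431% in E12, against 0.121%, 0.0849% and 0.0722% in WT. Their 3 groups did not overlap, with E12 between VF and WT.

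**Figure D1:**
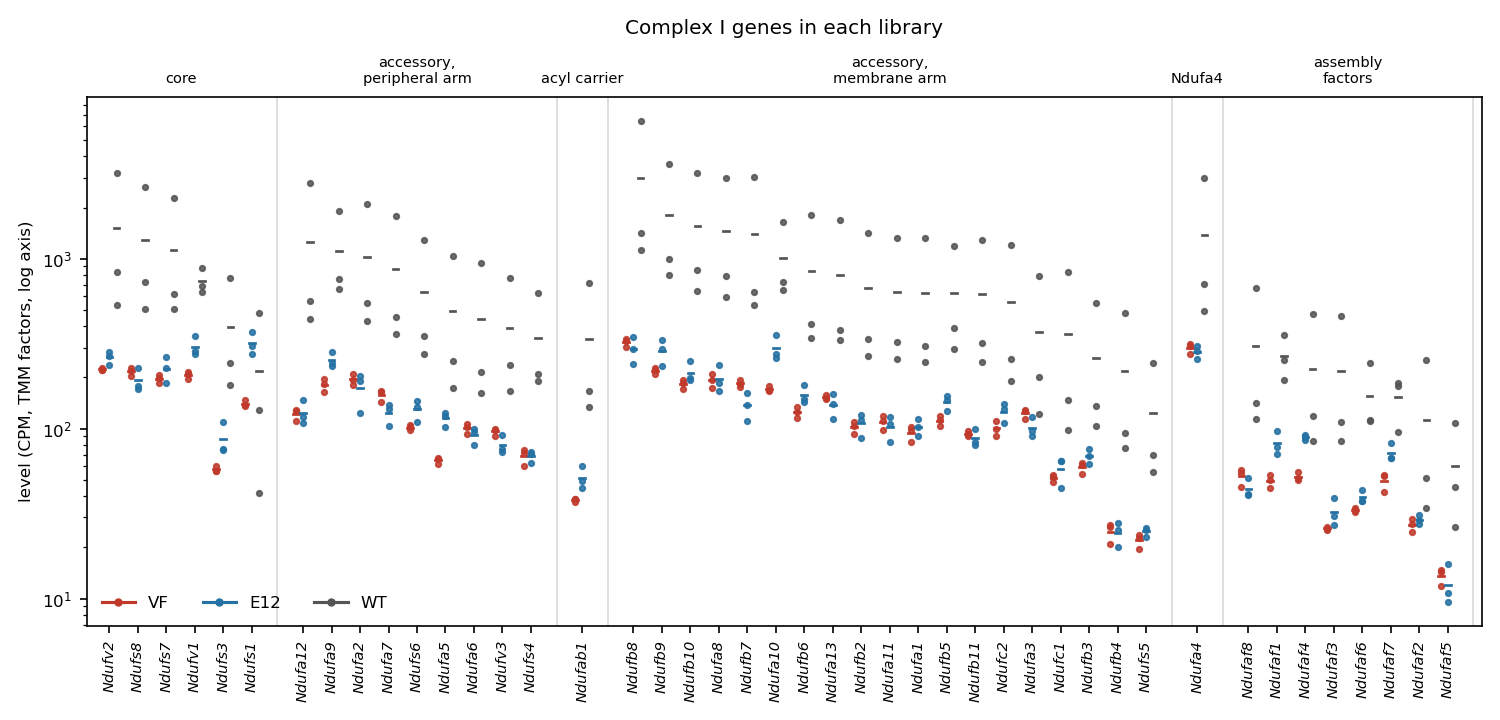
Level of the complex I genes reported here in each library, in CPM on a log axis, with genes grouped by role and ordered by their WT mean, points for libraries and short lines for group means (VF left, E12 middle, WT right). WT libraries lie above the mutant ones for most genes, WT 50 is the highest WT library for most, and Ndufs1 is the subunit whose WT libraries spread over the range of the mutant ones.

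Compared per kb of deposited gene length, Ndufa4 had the highest mean level in VF and E12, at 608 ± 43.7 and 576 ± 47.3 CPM per kb (SD, n = 3 each), against 2820 ± 2786 CPM per kb in WT. Its product was first assigned to complex I and is now counted with cytochrome c oxidase, but the gene stays in all counts and sums of subunit genes given here. Next came Ndufb8, a membrane-arm accessory subunit, at 502 ± 29 CPM per kb in VF and 457 ± 80.3 in E12, and at 4673 ± 4686 in WT, where it ranked first. The order within a group is a description. In WT the SD is about as large as the mean for both genes, and their libraries overlap in WT and E12 but not in VF. The lowest of the tested subunit genes per kb was Ndufa11 in VF and E12, at 41.1 ± 3.75 and 38.4 ± 6.55 CPM per kb (239 ± 226 in WT), and Ndufs1 in WT, at 74.4 ± 79.7. For Ndufa11 the deposited length is 2661 bases, while its principal transcript in the GENCODE M21 annotation has 545, so that its level per kb depends on the length used.

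The core subunits of the peripheral arm carry the electron path. Of these 6 of 7 fell in VF relative to WT, where 20.9% of all tested genes were called lower. Ndufv1, which binds NADH and the flavin (Entrez gene 17995, chromosome 19, 4007499 to 4012755, GRCm38), had 215, 210 and 195 CPM in VF against 634, 882 and 687 CPM in WT. All VF libraries were below all WT libraries, and its WT libraries differed little. The log2 fold change was -1.83, with an SE of 0.25 and an edgeR adjusted p = 0.000814.

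Other core genes showed the spread of the WT libraries. Ndufv2, the iron-sulfur protein beside Ndufv1, had 222, 228 and 220 CPM in VF against 3193, 839 and 535 CPM in WT. Ndufs8, which holds iron-sulfur clusters near the quinone, had 228, 219 and 205 CPM in VF against 2630, 728 and 505 CPM in WT. Ndufs7, its neighbour at the quinone site, had 207, 198 and 185 CPM in VF against 2263, 622 and 503 CPM in WT. In these 3 genes WT 50 was more than the other WT libraries together, and VF stayed below each WT library. Ndufs3, a scaffold of the quinone module, had 55.9, 60.5 and 56.2 CPM in VF against 765, 244 and 181 CPM in WT. The log2 fold changes of these 4 genes ran from -2.52 to -2.78, with adjusted p from 0.00298 to 0.00646 by edgeR. On the authors' deposited log2 levels, tested with limma, the call of Ndufv1 was lost (log2 fold change -0.58, adjusted p = 0.175).

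Ndufs1 (chromosome 1, 63143592 to 63176822), the core subunit with the most iron-sulfur clusters, was the exception. It had 137, 137 and 147 CPM in VF against 41.8, 129 and 482 CPM in WT, so that the WT libraries spanned the VF ones, with WT 50 lowest. Its log2 fold change was -0.63 with an interval from -2.17 to 0.90 (adjusted p = 0.465 by edgeR). At 2927 bases it has the greatest deposited length of the subunit genes. Single WT libraries decided it. Without WT 52 the log2 fold change was 0.46, without WT 50 it was -1.19 and passed the threshold (adjusted p = 0.0255 by edgeR), and without both WT 50 and E12 5 it was -1.17 (adjusted p = 0.0445 by edgeR).

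Among the accessory subunits of the peripheral arm all 9 fell in VF, where 20.9% of all tested genes were called lower. The acyl carrier gene Ndufab1, whose product sits in both arms, fell too. Ndufa12 had the lowest log2 fold change of the subunits, with 129, 127 and 111 CPM in VF against 2770, 565 and 443 CPM in WT (-3.36, SE 0.67, adjusted p = 0.00396 by edgeR). Ndufab1 had 36.9, 38.4 and 38.5 CPM in VF against 715, 167 and 134 CPM in WT (log2 fold change -3.16). Both genes had no overlap between the groups. The others of this arm had log2 fold changes from -2.91 for Ndufa5 to -2.02 for Ndufv3, and include Ndufs4, whose loss in humans and mice causes Leigh syndrome, at 72.2, 74.8 and 60.2 CPM in VF against 626, 210 and 190 CPM in WT.

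In the membrane arm 18 of 19 accessory genes fell in VF, beside the same 20.9% of all tested genes. Ndufb8 had 327, 337 and 301 CPM in VF against 6460, 1409 and 1118 CPM in WT, log2 fold change -3.22 (SE 0.65, edgeR adjusted p = 0.00428). It shows the pattern of the group, with VF libraries within a narrow band, no overlap, and WT 50 far above the rest. The subunit that missed the threshold was Ndufa3, with 129, 127 and 113 CPM in VF against 794, 201 and 121 CPM in WT (log2 fold change -1.60, adjusted p = 0.0511 by edgeR). It has the shortest deposited length of the subunits, 349 bases, and its VF range reached above WT 52. Outside the complex itself, Ndufa4 had 317, 306 and 275 CPM in VF against 2965, 708 and 489 CPM in WT (log2 fold change -2.21, adjusted p = 0.0155 by edgeR).

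In all, 35 of 37 subunit genes fell in VF relative to WT and 0 rose, where 20.9% of all tested genes were called lower. The median log2 fold change of the subunits was -2.57, against 0.36 over all genes tested. For 35 of the 37 all VF libraries lay below all WT libraries, which held for 23.0% of tested genes. The smallest p that exact permutation of 3 against 3 libraries allows for a gene is 0.1. Without WT 50 the count was 36, where 27.1% of tested genes were called lower, and the median -1.74, against -3.14 and -3.23 without WT 51 and WT 52. Without WT 50 and E12 5 together the count was 36 (26.6% of tested genes lower) and the median -1.70.

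The assembly factors fell as a group, 8 of 8, where 20.9% of tested genes were called lower, with a median log2 fold change of -2.18. Ndufaf1, which helps to build the membrane arm with Ecsit and Acad9, had 50.1, 53.2 and 44.9 CPM in VF against 357, 254 and 192 CPM in WT, log2 fold change -2.44 (SE 0.29, edgeR adjusted p = 0.000447). Ndufaf3 and Ndufaf4, partners in the assembly of the quinone module, were both lower. Ndufaf3 had 26.5, 25.5 and 25.6 CPM in VF against 459, 109 and 84.5 CPM in WT, the lowest log2 fold change of the factors (-3.07). Ndufaf4 had 55.4, 50.9 and 50 CPM in VF against 474, 118 and 85 CPM in WT (-2.11). Ndufaf7, an arginine methyltransferase of early assembly, had 53.4, 52.3 and 42.6 CPM in VF against 95.5, 179 and 184 CPM in WT (-1.63), and was the factor in which WT 50 was the lowest WT library. Ndufaf5, which hydroxylates Ndufs7, had 14.3, 14.7 and 11.8 CPM in VF against 108, 45.4 and 26.5 CPM in WT. Its partner Ndufaf8 had 57.3, 55.1 and 45.1 CPM in VF against 670, 141 and 113 CPM in WT.

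Ndufaf6, needed for the membrane arm, had 34.1, 33.1 and 32.5 CPM in VF against 244, 112 and 110 CPM in WT (log2 fold change -2.22, adjusted p = 0.0011 by edgeR). Ndufaf2, a paralogue of Ndufa12, had 29.4, 27.5 and 24.8 CPM in VF against 254, 51.2 and 34 CPM in WT (log2 fold change -2.05, adjusted p = 0.0276 by edgeR). That call was lost with an offset for gene length (-0.19, adjusted p = 0.492), and 65.6% of the gene's annotated exon bases lie opposite B230220B15Rik, so without strand the reads of both cannot be told apart. In no assembly factor did a VF library reach the lowest WT library, which held for 23.0% of tested genes.

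Much of the fall in VF was shared by other short genes. The median log2 fold change was -1.77 over tested genes under 1 kb, -0.79 over those of 1 to 2 kb and 0.80 over longer ones. Subunits under 1 kb had a median of -2.73 and those of 1 to 2 kb of -2.43. For each member the median over non-Nduf genes within 25% of its length was subtracted. The remaining difference had a median of -1.06 over the subunits and lay below 0 for 36 of 37, and had a median of -1.54 over the assembly factors, 8 of 8 below 0. The typical subunit (the median over members) had 54.8% of its similar-length genes called lower, so most of its neighbours in length fell with it. Among the factors Ndufaf4 (-2.92) and Ndufaf5 (-2.51) lay farthest below their neighbours. Among the subunits reported here it was Ndufa11 (-2.86), whose length differs between annotations, followed by Ndufv2 (-2.20), while Ndufa3 lay above them (0.22) and Ndufa6, which anchors the acyl carrier, near them (-0.18). For Ndufaf5 too the lengths differ, with 2732 bases deposited and 1166 in its principal transcript. Offsets by these lengths gave it log2 fold changes of -3.15 and -1.01 in VF relative to WT, so its place depends on the length used.

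**Figure D2:**
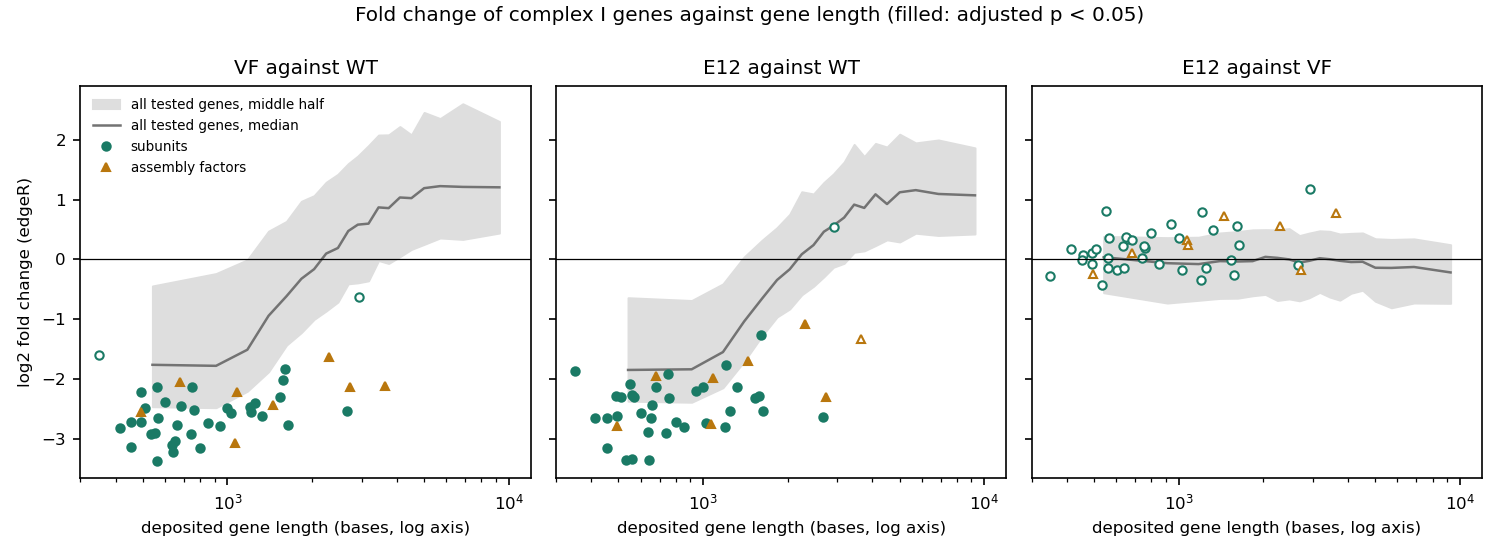
Log2 fold change of the complex I genes reported here (edgeR) against its deposited length in bases on a log axis, for 3 comparisons, with circles for subunits, triangles for assembly factors, filled symbols for adjusted p under 0.05, and the median and interquartile range of all tested genes in bins of length. In both contrasts with WT the median of all genes climbs with length and most complex I genes lie below it, while in E12 against VF the line is flat and the members lie on both sides of 0.

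An offset for gene length, fitted in each library by a smooth curve over all tested genes and used in edgeR, left 33 of 37 subunits lower in VF and 0 higher, where 29.9% of tested genes were called lower, and 7 of 8 assembly factors lower. The median over the subunits was -1.16 with the offset, against -0.24 over all genes. Ndufa3 turned to 0.15 (adjusted p = 0.546), Ndufa6 to -0.26 (0.135), Ndufa4 to -0.30 (0.132) and Ndufs1 to -1.16 (0.0907), the 4 subunit-named genes not called. The size of the difference from similar-length genes depends on what it is set against. Against genes of similar length and also of similar mean level, a comparison chosen after seeing the data, the median was -0.41. On the authors' deposited log2 levels it was 0.14, with the opposite sign. Even so, 28 of 37 subunits were called lower there by limma, where 23.8% of tested genes were, and their median was -1.16.

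**Figure D3:**
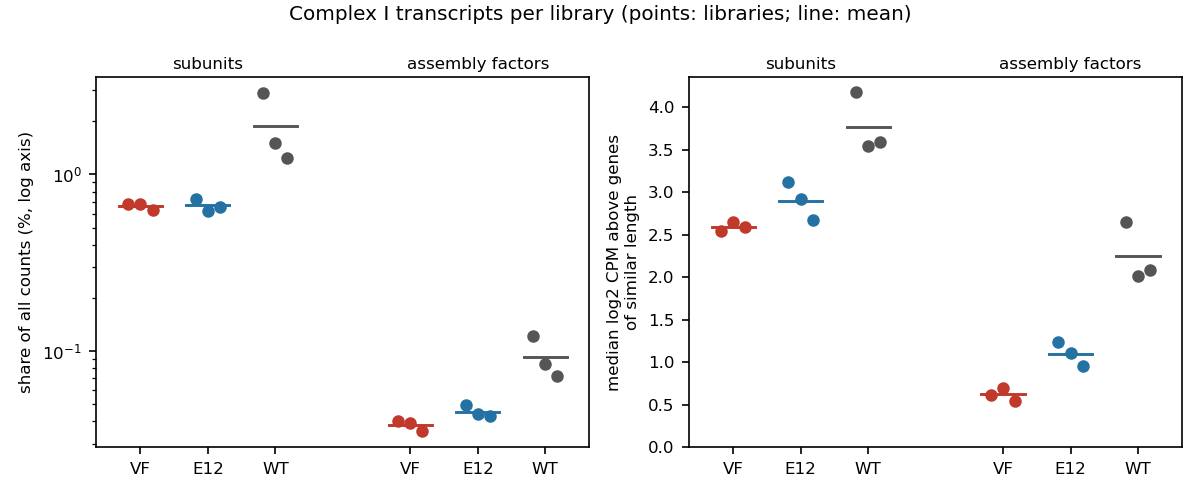
Left, the share of all counts of each library taken by subunit and assembly factor genes, in percent on a log axis; right, their median log2 CPM minus that of genes within 25% of their length. Points are libraries, lines are group means, and VF stands left, then E12, then WT. In the right panel the subunits lie at 2.54 to 2.65 in VF, 2.67 to 3.12 in E12 and 3.54 to 4.18 in WT.

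Per library, the median subunit stood 2.54, 2.65 and 2.60 log2 units above genes of similar length in VF, 3.12, 2.92 and 2.67 in E12, and 4.18, 3.54 and 3.59 in WT. For the assembly factors it was 0.62, 0.70 and 0.55 in VF, 1.23, 1.11 and 0.96 in E12, and 2.65, 2.01 and 2.09 in WT. The 3 groups did not overlap in either measure, although VF 2 and E12 5 differed by only 0.02 for the subunits.

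Most complex I genes were also lower in E12 relative to WT. Of 37 subunits 36 fell and 0 rose, where 18.1% of tested genes were called lower, with a median log2 fold change of -2.44 against 0.36 over all genes. All E12 libraries lay below all WT libraries for 36 subunits and for 20.3% of tested genes. The contrasts of VF and of E12 share the 3 WT libraries, so their likeness is not independent. Without WT 50 the count was 36, where 24.0% of tested genes were called lower, and the median -1.54, against -3.06 and -3.13 without WT 51 and WT 52. Without WT 50 and E12 5 together they were 35 (21.2% of tested genes lower) and -1.45. Of the 20 erythroid markers 3 were higher and 4 lower in E12 relative to WT (median log2 fold change 0.53), where 23.9% and 18.1% of tested genes were. In VF relative to WT 0 were higher and 17 lower (-4.54), against 27.7% and 20.9% of tested genes. The part of these markers in the fall of the subunits was not tested.

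In the core, Ndufv1 had 349, 288 and 275 CPM in E12 against 634, 882 and 687 CPM in WT, log2 fold change -1.27 (SE 0.25, edgeR adjusted p = 0.00532). Ndufs3 had 109, 75 and 75.6 CPM in E12 (-2.20, adjusted p = 0.00951). Both stayed below their lowest WT library. On the deposited log2 levels the call of Ndufv1 was again lost (adjusted p = 0.611 by limma). Ndufs7 had 263, 186 and 226 CPM in E12 (log2 fold change -2.33), Ndufs8 had 228, 179 and 172 CPM (-2.74) and Ndufv2 had 268, 237 and 282 CPM (-2.54).

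Ndufs1 was the subunit not called in E12. It had 371, 276 and 308 CPM in E12 against 41.8, 129 and 482 CPM in WT, log2 fold change 0.55 with an interval from -0.99 to 2.08 (adjusted p = 0.546 by edgeR). All E12 libraries lay between WT 51 and WT 52. Without WT 50 the log2 fold change was -0.01, and without WT 52 it was 1.64 and called as higher (adjusted p = 0.0113 by edgeR).

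The lowest log2 fold changes in E12 were those of the membrane-arm genes Ndufb8 (-3.36) and Ndufb7 (-3.35) and of Ndufa12 (-3.34). Ndufb8 had 344, 241 and 293 CPM in E12 against 6460, 1409 and 1118 CPM in WT. Ndufb7, which is folded by disulfide bonds in the intermembrane space, had 163, 111 and 138 CPM in E12 against 3017, 636 and 532 CPM in WT (adjusted p = 0.00537 by edgeR). Ndufa12 had 147, 108 and 118 CPM in E12 against 2770, 565 and 443 CPM in WT. At the other end, Ndufa3 had 117, 96.8 and 90.6 CPM in E12 against 794, 201 and 121 CPM in WT (log2 fold change -1.87, adjusted p = 0.0333) and Ndufb3 had 76.3, 62.2 and 68.6 CPM in E12 against 546, 136 and 104 CPM in WT (-1.92, adjusted p = 0.0231). They lay 0.01 and 0.03 above the median of genes of their length, and both calls were lost with the length offset (adjusted p = 0.973 and 0.711 by edgeR).

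Of the assembly factors 7 of 8 fell in E12, where 18.1% of tested genes were called lower, with a median log2 fold change of -1.97. Ndufaf4 was not called, with 92, 89.7 and 86 CPM in E12 against 474, 118 and 85 CPM in WT, so that all E12 libraries lay above WT 52 and below the other WT libraries (log2 fold change -1.34, adjusted p = 0.0813 by edgeR). With the length offset it was called (-2.65, adjusted p = 0.022) and by DESeq2 (-1.65, adjusted p = 0.0263). It has the greatest deposited length of the factors, 3632 bases. Without WT 51 and without WT 52 it was called too (adjusted p = 0.0413 and 0.00898 by edgeR). Ndufaf1 had 97.1, 70.7 and 78.2 CPM in E12 (-1.71, adjusted p = 0.00286) and Ndufaf7 had 82.5, 67.4 and 67 CPM (-1.08, adjusted p = 0.015). Ndufaf3 (38.9, 26.9 and 30.7 CPM, log2 fold change -2.76), Ndufaf5 (15.9, 9.6 and 10.8 CPM, -2.31), Ndufaf6 (43.3, 37.5 and 37.5 CPM, -1.98) and Ndufaf8 (51, 40.8 and 41.4 CPM, -2.79) lay below every WT library in E12. Ndufaf2 had 31.1, 27.4 and 29 CPM (-1.95, adjusted p = 0.0375), and its call was lost with the length offset (0.07, adjusted p = 0.826).

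Set against genes of similar length, the subunits had a median difference of -0.65 in E12 relative to WT, with 35 of 37 below 0, and the assembly factors of -0.97, with 7 of 8 below 0. With the length offset 27 subunits fell and 0 rose, where 20.4% of tested genes were called lower, and 7 factors fell. The median over the subunits was then -0.80, against -0.15 over all genes. Genes of similar length and level gave -0.39 and the deposited log2 levels 0.11, again with the opposite sign. Of the core subunits, Ndufv2 stood farthest below its neighbours in length (-1.91). With E12 and WT alone in the fit, 29 subunits and 5 factors were called lower, where 10.5% of 12791 tested genes were. The length offset in that fit left 15 and 4, where 1166 tested genes were called lower. With VF and WT alone the counts were 33 and 7 (16.2% of 13422 tested genes), and 31 and 7 with the offset (3272 genes).

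Between the mutants no member passed the test in the fit of all libraries. In E12 relative to VF 0 of 37 subunits and 0 of 8 assembly factors were called by edgeR, where 3.21% of all tested genes were called in either direction. At an unadjusted p under 0.05 there were 1 subunit, Ndufv1, and 1 factor, Ndufaf1, both higher, where 1261 of 13608 tested genes were higher. DESeq2 and limma-voom called 0 subunits and 0 factors, and the shares of all tested genes that these tools called are not given here. The median log2 fold change was 0.14 over the subunits, 0.28 over the factors and -0.05 over all genes. A missed threshold does not show that the groups were alike, and the spread behind each interval is shared with WT. For Ndufb8 the interval ran from -1.49 to 1.22.

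The count depended on the libraries in the fit. With E12 and VF alone, 13 subunits were higher and 2 lower, where 25.4% of tested genes were called higher and 22.6% lower. The 2 lower were Ndufb7 (log2 fold change -0.40, adjusted p = 0.028) and Ndufa7 (-0.31, adjusted p = 0.0476), an accessory subunit of the peripheral arm. Ndufaf1, Ndufaf4 and Ndufaf7 were the 3 factors called, all higher. Without WT 50 in the fit of all groups 5 subunits and 3 factors were called higher, where 12.8% of tested genes were, and without WT 50 and E12 5 there were 3 and 3, where 11.3% were. With the length offset and all libraries 6 subunits were higher and 0 lower, where 7.67% of tested genes were called higher, and the factors Ndufaf1 and Ndufaf7 were higher. These were Ndufa5, Ndufa10, Ndufs3, Ndufv1, Ndufb9 and Ndufs6. All E12 libraries lay above all VF libraries for 12 of 37 subunits, which held for 28.2% of tested genes, so that share is near the background.

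**Figure D4:**
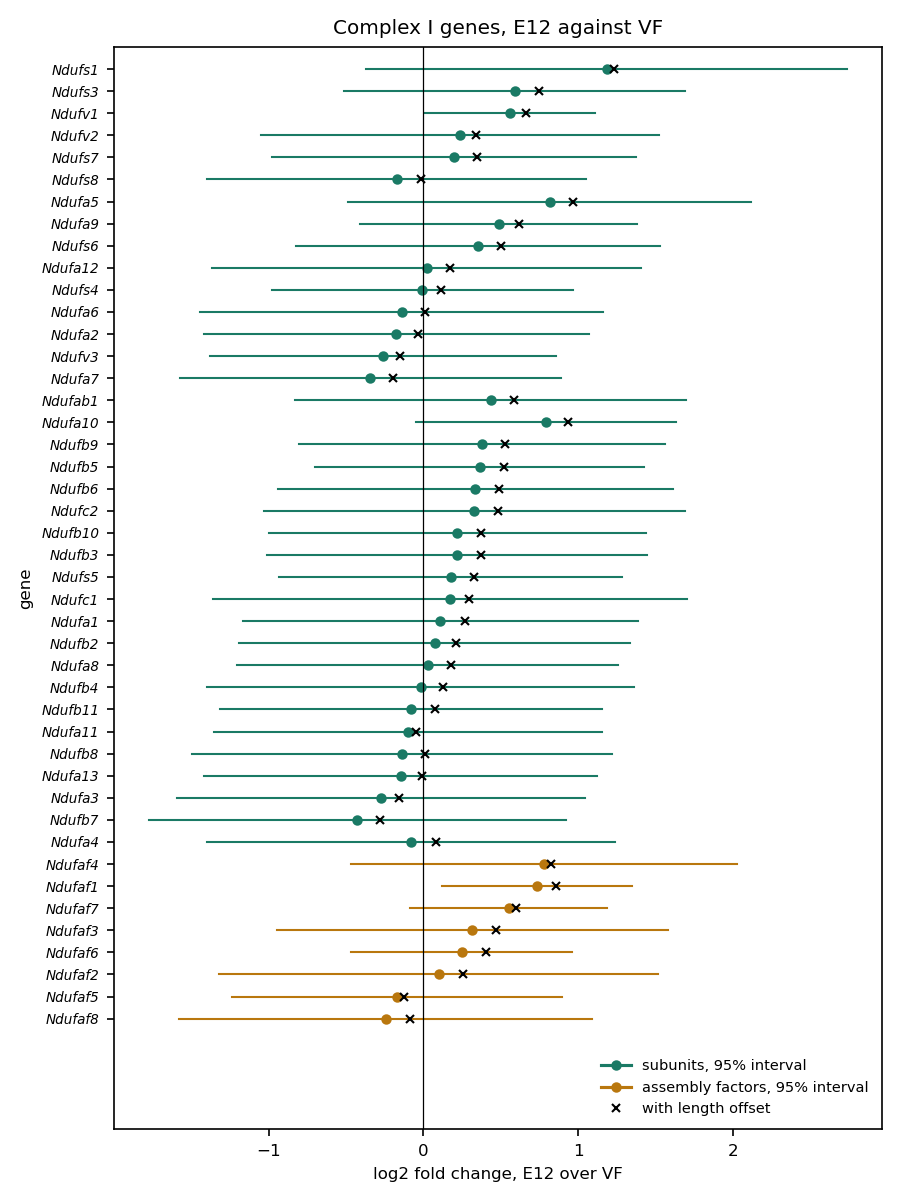
Log2 fold change of the complex I genes reported here in E12 over VF (edgeR, all 9 libraries), by role, with 95% intervals as lines, and crosses for the value with the length offset. Ndufs1 has the highest value, 1.18, and the interval of every subunit shown but Ndufv1 reaches 0.

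Ndufs1 had the highest log2 fold change in E12 relative to VF. It had 371, 276 and 308 CPM in E12 against 137, 137 and 147 CPM in VF, without overlap. The log2 fold change was 1.18 with an interval from -0.37 to 2.73 (adjusted p = 0.424 by edgeR) in the fit of all libraries, whose spread for this gene comes mainly from WT. In the fit of E12 and VF alone it was 1.21 (adjusted p = 9.02e-05). Ndufa5, an accessory subunit of the quinone module, had 123, 102 and 119 CPM in E12 against 67.6, 66.4 and 61.6 CPM in VF, log2 fold change 0.81 (adjusted p = 0.517, and 0.000209 with these groups alone). Ndufa10, a membrane-arm subunit with the fold of a nucleoside kinase, had 355, 274 and 260 CPM in E12 against 179, 169 and 166 CPM in VF, log2 fold change 0.79 (adjusted p = 0.316, and 0.000585 with these groups alone). Ndufv1 had 349, 288 and 275 CPM in E12 against 215, 210 and 195 CPM in VF (0.56, adjusted p = 0.273, and 0.00147). Ndufs3 had 109, 75 and 75.6 CPM in E12 against 55.9, 60.5 and 56.2 CPM in VF (0.59, adjusted p = 0.592, and 0.00641). In these 5 genes each E12 library was above each VF library.

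For other members the ranges of both mutants met. Ndufb8 had 344, 241 and 293 CPM in E12 against 327, 337 and 301 CPM in VF, and Ndufs8 had 228, 179 and 172 CPM in E12 against 228, 219 and 205 CPM in VF. By contrast, Ndufb7 had 163, 111 and 138 CPM in E12 against 194, 183 and 176 CPM in VF, with each E12 library below each VF library. The factors Ndufaf4, at 92, 89.7 and 86 CPM in E12 against 55.4, 50.9 and 50 CPM in VF, and Ndufaf1, at 97.1, 70.7 and 78.2 CPM in E12 against 50.1, 53.2 and 44.9 CPM in VF, did not overlap either (log2 fold changes 0.78 and 0.73). In E12 relative to VF the erythroid markers were higher, 17 of 20 called (median log2 fold change 4.34). Of 13608 tested genes 298 were called higher and 139 lower. Among the other markers 7 of 19 megakaryocyte and 6 of 14 stem cell markers were lower. Their part in these differences was not tested.

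Genes outside the family that serve complex I were counted in the same fit. Of 12 other assembly factors 7 fell and 0 rose in VF relative to WT, 6 fell and 0 rose in E12 relative to WT, and 0 were called in E12 relative to VF, with 1 higher at an unadjusted p under 0.05. The shares of all tested genes called lower relative to WT, given above, were 20.9% in VF and 18.1% in E12. At an unadjusted p under 0.05, 1261 of 13608 tested genes were higher in E12 relative to VF. The medians of these factors were -1.49, -0.75 and 0.31. Under the offset for length 7 were called lower in VF and 2 in E12 relative to WT, where 29.9% and 20.4% of tested genes were. Ecsit, partner of Ndufaf1, averaged 59.4 ± 1.71 CPM in VF and 187 ± 18 CPM in WT (SD, n = 3 each), log2 fold change -1.66 (adjusted p = 0.000627 by edgeR), and averaged 95.6 ± 14.4 CPM in E12. Of 16 genes that supply iron-sulfur clusters, 10 fell and 1 rose in VF, 8 fell and 2 rose in E12, both relative to WT, and 2 rose in E12 relative to VF. Of all tested genes 27.7% were called higher in VF and 23.9% in E12 relative to WT, and 298 of 13608 in E12 relative to VF. Of the 16 genes 10 fell and 0 rose in VF, and 7 fell and 1 rose in E12, relative to WT with the length offset. The 2 that rose in E12 relative to VF were Glrx5, which passes on clusters and is needed for heme synthesis (256 ± 89.4 CPM in E12, 44 ± 8.65 CPM in VF, log2 fold change 2.54, adjusted p = 0.0119 by edgeR), and Iba57 (1.53, adjusted p = 0.0343).

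The other complexes of the chain were mostly lower relative to WT too. Among 34 tested genes for complexes III to V, 33 were called lower in VF and 32 in E12 relative to WT, with medians of -2.58 and -2.31. In E12 relative to VF 0 were called, with 4 higher at an unadjusted p under 0.05, where 1261 of 13608 tested genes were. After the offset 32 were called lower in VF and 22 in E12 relative to WT, against 29.9% and 20.4% of tested genes, and the medians were -0.93 and -0.58. Of 8 genes of complex II and its assembly 6 fell in each mutant, and 5 in VF and 4 in E12 with the length offset. Beside both lists, 20.9% of all tested genes were called lower in VF and 18.1% in E12 without the offset. No test compared these lists with complex I. Of 13 regulators of mitochondrial biogenesis 2 rose and 1 fell in each mutant, where 27.7% of tested genes were called higher in VF and 23.9% in E12. Relative to WT with the length offset 0 were higher in either, and 6 were lower in VF and 4 in E12. The gene that fell in both without the offset was Tfam, which maintains mitochondrial DNA, at 58 ± 6.54 CPM in VF and 84.2 ± 8.87 CPM in E12, against 129 ± 11.3 CPM in WT (log2 fold changes -1.16 and -0.62, adjusted p = 0.00234 and 0.0353 by edgeR). Nrf1, a transcription factor of respiratory chain genes, averaged 105 ± 8.07 CPM in VF and 132 ± 3.17 CPM in E12, against 108 ± 36.5 CPM in WT. It was not called relative to WT (log2 fold changes -0.04 and 0.28, adjusted p = 0.903 and 0.423 by edgeR). It was called lower with the length offset in VF (-1.40, adjusted p = 0.000207) and in E12 (-0.92, adjusted p = 0.00289).

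Because the subunit genes fell together relative to WT, their promoters were searched for letter patterns of factors known to act on respiratory chain genes. The RefSeq windows on GRCm38 ran from 250 bases before to 50 after the start and matched 33 of 38 subunit genes and 7 of 8 assembly factors. The pattern of Nrf1 (GCGCA, any base, then GCGC), read like the others on either strand, was in 21.2% of the matched subunit genes, against 11.1% of tested genes with a window and 5.19% of all 27025 genes in the RefSeq promoter table. The pattern AAGATGGC of YY1 was in 21.2%, against 5.13% of tested genes and 3.19% of all in that table. The ETS pattern CCGGAAG was in 12.1% (19.7% of tested genes and 9.93% of all in that table) and the SP1 pattern GGGCGG in 45.5% (66.2% and 38.2%). Of the 7 matched assembly factors 2 held the Nrf1, 2 the ETS, 1 the YY1 and 6 the SP1 pattern. These are matches of letters, not measured sites. The 120 bases before the start are shown for 4 members that hold it there, chosen after their values were seen, with matches to the Nrf1 pattern in capitals, each 5′ to 3′ on the gene's own strand.
Ndufb4 (membrane arm, chr16:37654369-37654488, minus strand, 3 matches in its whole window): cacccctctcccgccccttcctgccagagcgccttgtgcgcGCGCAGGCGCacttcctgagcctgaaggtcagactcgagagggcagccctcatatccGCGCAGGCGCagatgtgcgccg
Ndufa5 (peripheral arm, chr6:24527691-24527810, minus strand): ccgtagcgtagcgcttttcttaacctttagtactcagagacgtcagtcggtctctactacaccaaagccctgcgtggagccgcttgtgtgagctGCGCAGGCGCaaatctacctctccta
Ndufs6 (peripheral arm, chr13:73328483-73328602, minus strand): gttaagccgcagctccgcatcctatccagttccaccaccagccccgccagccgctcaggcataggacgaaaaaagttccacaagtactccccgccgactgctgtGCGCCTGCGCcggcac
Ndufaf4 (assembly factor, chr4:24897963-24898082, plus strand): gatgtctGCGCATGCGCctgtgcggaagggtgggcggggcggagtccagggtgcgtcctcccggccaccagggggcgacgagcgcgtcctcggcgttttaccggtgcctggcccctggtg
Of these genes Ndufb4 had 26.4, 26.9 and 20.8 CPM in VF and 27.6, 20.2 and 25.3 CPM in E12, against 482, 94.4 and 77.2 CPM in WT (log2 fold changes -3.14 and -3.16). Ndufs6, whose product binds zinc, had 105, 102 and 97.7 CPM in VF and 145, 110 and 134 CPM in E12, against 1289, 349 and 276 CPM in WT (-2.65 and -2.30).

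Some counts may hold reads of other genes, since Smart-Seq2 marks no strand and the counting tool is not given in the sources used here. Exons of Ndufb6 share 39.0% of their bases with Smim27 on the opposite strand. Those of Ndufb9 share 19.5% with Gm49356 on the same strand, where strand marks would not part the reads. Ndufs5 has a near-identical processed copy, BC002163, which is itself in the count table, and Ndufb11, Ndufs3 and Ndufs6 have copies outside it. The values of these genes are uncertain to that extent.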

How the data were processed

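The deposited counts are whole reads per gene with Entrez identifiers, a symbol and a length in bases for each of 17769 genes, per the file headers. A second deposited table gives log2 expression levels by the authors, with no statement of how they were normalized. The submitters' processing notes name STAR, limma, GRCm38 and mm10; they name neither a counting tool nor an annotation, and what the length measures is not stated. Of the genes, 8 had no symbol.

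Counts were filtered with filterByExpr, scaled by TMM and tested with edgeR 4.0.16 (R 4.3.3) over all 9 libraries, two-sided, with Benjamini-Hochberg adjustment over 13608 genes, after the script was tested on simulated data. The length offset was a lowess curve (span 0.3) of log2 CPM, relative to each gene's mean, on log2 length. Levels relative to genes of similar length used log2 of CPM plus 0.5. Alternatives used limma 3.58.1, DESeq2 1.42.0, other filters, scaling and lengths, and left out libraries.

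Members and lists were chosen with earlier results of these data known. Some genes are counted in the lists but not reported here by name. Otherwise values are given in every library for the core subunits, all assembly factors, the 3 members with the largest change each way, those not called where 5 or fewer, the 3 farthest above or below genes of similar length, the 3 highest per kb, and up to 3 genes per other list with the smallest p. Some members were named beyond this rule after their values were seen (Ndufs4, Ndufs6, Ndufb3, Ndufb4, Ndufa7, Glrx5, Iba57 and Nrf1 among them). Totals ran from 19256431 to 39736096 counts, and without molecular identifiers reads are not independent molecules. Positions and promoters are from RefSeq on GRCm38.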

Additional observations from a re-analysis of the deposited data

How the results depend on the processing

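In both contrasts with WT the median log2 fold change of the subunits stayed negative under every alternative run. It moved most with gene length and with the deposited log2 levels. In VF relative to WT it was -1.155 with the length offset, -1.159 with an offset by principal transcript length, -1.008 with the length offset and without WT 50, and -1.156 on the deposited levels; in E12 relative to WT it was -0.8022, -0.8044, -0.7784 and -1.205. The offset by principal transcript length and the length offset without WT 50 were chosen after seeing the data. Leaving out 1 library at a time gave 32 to 36 subunits and 6 to 8 factors called in VF relative to WT, with medians from -3.229 to -1.737. In E12 relative to WT it gave 28 to 37 and 5 to 8, with medians from -3.134 to -1.539. These calls are in either direction, and the 37 include Ndufs1, called as higher without WT 52. Of all tested genes, 34.2% were called in VF relative to WT without VF 3 and 59.9% without WT 50. In E12 relative to WT 25.9% were called without E12 2 and 52.5% without WT 50. With RLE size factors the median of all genes was 0.21 in VF and 0.17 in E12 relative to WT, and that of the subunits -2.84 and -2.76.

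The median difference from genes of similar length was -1.602 (VF relative to WT) and -1.017 (E12 relative to WT) without a filter on low counts, -1.639 and -1.064 by DESeq2, and reversed to 0.1355 and 0.1104 on the deposited levels, whose normalization is unknown. With genes of similar length and mean level, chosen after seeing the data, it was -0.4113 in VF relative to WT. Leaving out 1 library gave -1.105 to -0.7587 in VF and -0.7935 to -0.6081 in E12 relative to WT. The causes were not tested.

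In E12 relative to VF the number of subunits called was 15 with these groups alone, 6 with the length offset, 3 without WT 50 and E12 5, 3 with the offset by principal transcript length, 15 with the length offset and without WT 50, and 16 with the length offset and these groups alone; the factors called were 3, 2, 3, 1, 5 and 5. Of all tested genes these fits called 48.0%, 10.4%, 18.4%, 10.5%, 30.7% and 49.8%, in that order. Leaving out 1 library gave 0 to 5 subunits and 0 to 3 factors, with the highest counts without WT 50, where 23.5% of tested genes were called. VF and E12 share replicate numbers 1 and 2. A replicate block on these numbers called 9 subunits and 3 factors, and the same 4 libraries without the block called 8 and 3, where 40.4% and 39.7% of tested genes were called. The deviations of same-numbered libraries correlated at r = 0.00975 and 0.103, and those of crossed numbers at 0.0165 and 0.132, so the numbers were not taken as a pairing.

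Signs under each alternative were followed only for the genes named by the rule in each contrast, and few of these changed. In E12 relative to VF, 23 of 37 subunits had a log2 fold change above 0. The length offset raised this to 29. Among the genes followed, the changes were these. With the length offset Ndufa3 was 0.1465 in VF and Ndufaf2 0.06878 in E12, relative to WT. With the offset by principal transcript length Ndufa3 was 0.364 in VF and 0.2279 in E12, and Ndufaf2 0.07451 in E12. With the length offset and without WT 50, Ndufa3 was 0.1887 in VF and 0.03044 in E12, Ndufaf2 0.013 and 0.2703, and Ndufs1 -0.3805 in E12. Ndufs1 in VF was 0.05144 by limma-voom and 0.4953 on the deposited levels, and ranged from -1.193 to 0.4627 when 1 library was left out; in E12 it was -0.01469 without WT 50 and 1.641 without WT 52. On the deposited levels, in E12 relative to VF, Ndufv2 was -0.01093, Ndufs7 -0.07194 and Ndufaf5 0.04523. The depth of 19256431 counts or more left every tested member with counts in each library.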
